A study of Mus musculus with 16 samples.

Results

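The genes for the receptors of glutamate and GABA were followed in 16 bulk RNA libraries of transplanted mouse glioblastoma. They were all gene symbols of the deposited table of all libraries that name an AMPA, kainate, NMDA, delta or metabotropic glutamate receptor subunit or a GABA-A or GABA-B receptor subunit, which gave 47 of 26466 genes. By class these were 4 AMPA, 5 kainate, 7 NMDA, 2 delta, 8 metabotropic glutamate, 19 GABA-A and 2 GABA-B genes. The groups were 4 Type 2 TAM depleted tumours, 4 Type 2 Control tumours, 3 Type 1 TAM depleted tumours and 5 Type 1 Control tumours. TAMs, tumour-associated macrophages, are the macrophages and microglia within a tumour, and Type 1 and Type 2 are 2 mouse models of glioblastoma that the series title calls lineage-based. No source used here gives the genotype, strain, age or sex of the animals, the cells transplanted, or the way TAMs were depleted. The labels do not say whether the libraries of a group came from separate animals, so the p-values cover only the spread among these libraries, which may be technical. The question was whether receptor genes differed with TAM depletion in each tumour kind and between the tumour kinds.

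Glutamate is the main excitatory transmitter of the brain and GABA the main inhibitory one. AMPA, kainate and NMDA receptors are cation channels built of several subunits, metabotropic glutamate receptors and GABA-B receptors signal through G proteins, and GABA-A receptors are chloride channels, mostly of alpha and beta subunits with a gamma or delta subunit. Neurons carry most of these receptors, while astrocytes carry Grm3 and Grm5, and cells of the oligodendrocyte precursor lineage carry AMPA receptors and receive synapses from neurons. Glioma cells can carry AMPA receptors as well and can take part in synapses with neurons.

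Values are normalized counts, which are reads scaled by the authors' size factor of each library. A log2 fold change is the difference of group means of log2(normalized count + 1), which understates the change of low genes. Differences were tested with limma-trend over all 26463 genes tested, with Benjamini-Hochberg adjustment and a threshold of 0.05. All 47 receptor genes passed the filter on low values. Levels of different genes are compared only per length, as reads per kb of exon per M reads.

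The libraries held 4.21 to 18.3 M reads and fell into a high-background and a low-background set by how many reads lay in genes for odour and pheromone receptors, which are known from the nose. The 9 libraries with over 2000 such reads per M were Type 2 TAM depleted 3 and 4, Type 2 Control 1 and 3 and all 5 Type 1 Control libraries, and the other 7 held 93.1 to 763 per M. Both sets were thus present in each Type 2 group, while in Type 1 the set and the treatment cannot be told apart. Summed normalized counts of 12 macrophage and microglia markers were 1745 to 3670 in Type 2 TAM depleted against 3403 to 9666 in Type 2 Control libraries, and 1543 to 3376 in Type 1 TAM depleted against 1761 to 3533 in Type 1 Control libraries. In Type 2, 3 of the 12 fell (Adgre1, Ptprc and Fcer1g) and all 12 fold changes were negative. In Type 1 none of the 12 passed the test and 10 were negative. The summed counts overlapped between depleted and Control libraries in both tumour kinds.

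Per kb, most receptor genes stood above the odour and pheromone receptor genes of their own library, but not in every library. Between 22 and 43 of the 47 exceeded the 95th percentile of those genes in 15 libraries. In the shallowest library, Type 2 Control 1, 3 of 47 did. Gria3, an AMPA receptor subunit, and Gabbr1, the GABA-B subunit that binds GABA, exceeded it in all 16 libraries. At the other end Gabra6, a GABA-A subunit best known from cerebellar granule cells, Gabrp, a GABA-A subunit best known outside the brain, and Gabrr3, a rho subunit best known from the retina, exceeded it in 1 library each. Grm6, the metabotropic receptor of ON bipolar cells of the retina, did so in 3 libraries and Grin3b in 6.

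**Figure D1:**
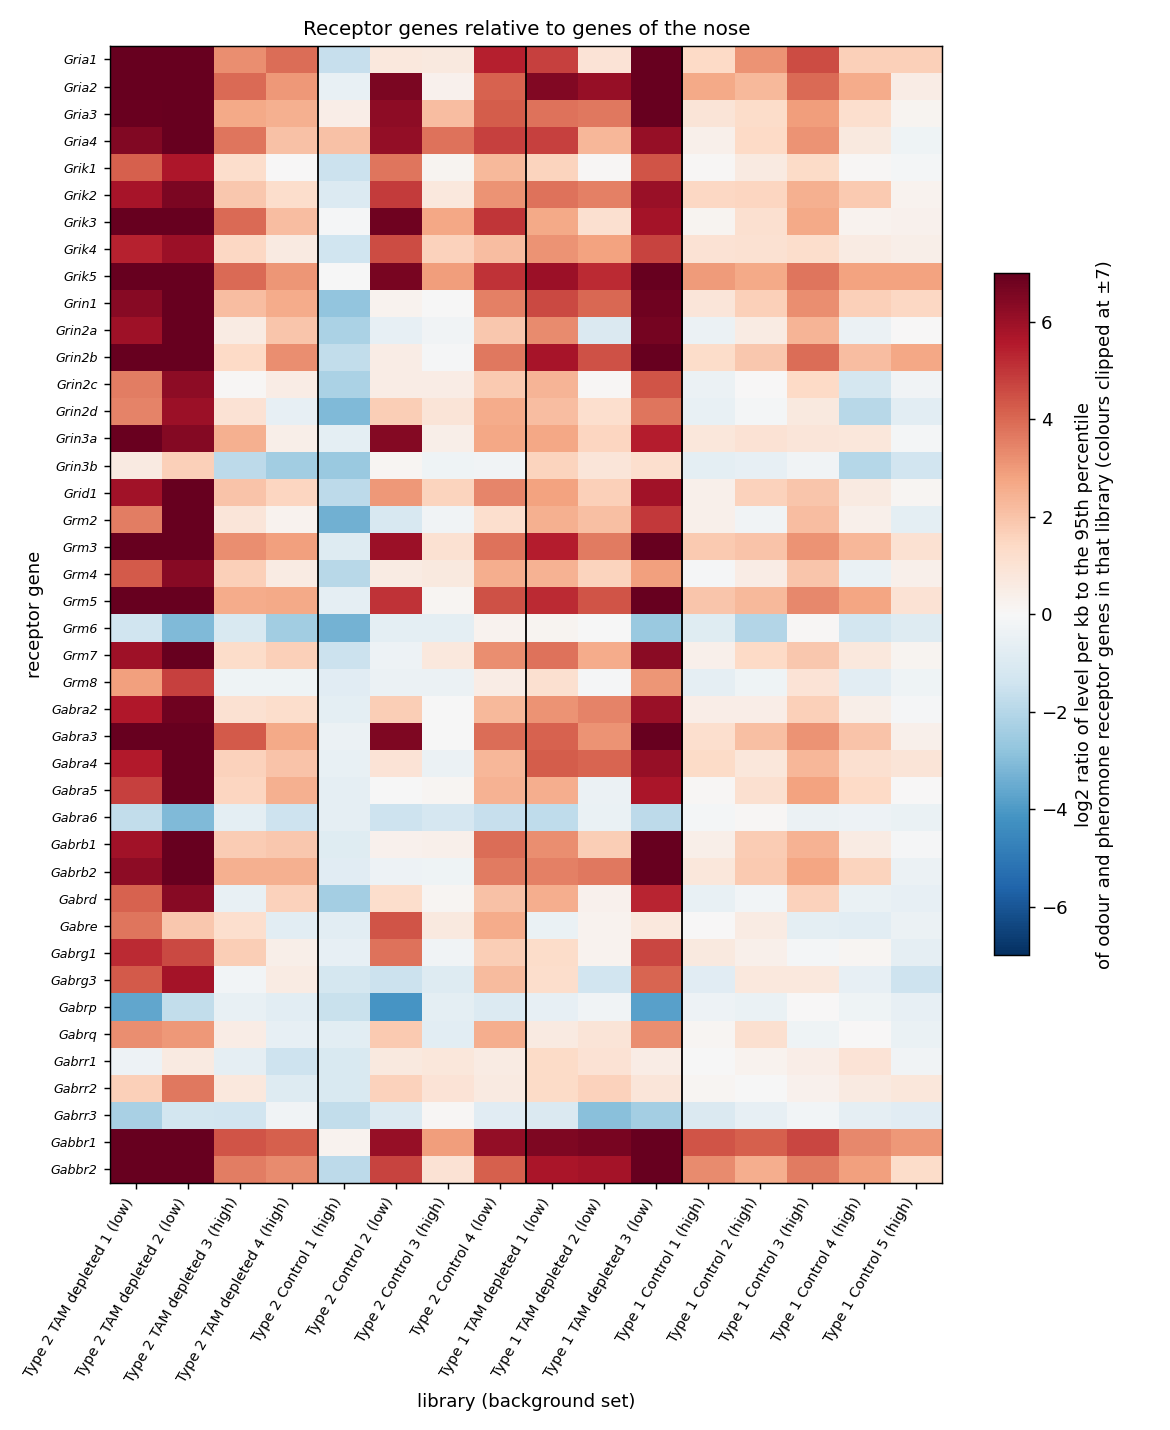
Level per kb of each of 42 receptor genes (rows) in each library (columns, with its background set in brackets) as a log2 ratio to the 95th percentile of odour and pheromone receptor genes of that library; red is above and blue is below. Gabbr1 is red in all 16 columns, and the column of Type 2 Control 1, where 3 of 47 genes stood above, is mostly blue.

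The order of levels per kb differed among the groups, with Gabbr1 first in each. Means were 45.5 ± 26.1 reads per kb per M in Type 2 TAM depleted, 16.5 ± 13.7 in Type 2 Control, 43.6 ± 26.2 in Type 1 TAM depleted and 28.6 ± 13.7 in Type 1 Control libraries (SD, n = 4, 4, 3 and 5). In Type 2 TAM depleted libraries Gria1 (40.8 ± 36.6), Gabbr2 (33.3 ± 27.1) and Grik5 (27.8 ± 14.0) came next, in Type 2 Control libraries Gria4 (16.2 ± 6.4), Grik5 (13.1 ± 6.80) and Grik3 (12.8 ± 7.21). In Type 1 TAM depleted libraries Gria2 (27.0 ± 7.09) and Gabbr2 (25.2 ± 15.9) were among the next, and in Type 1 Control libraries Gria1 (14.6 ± 16.1) and Grik5 (14.0 ± 5.54). The SDs give the spread of each gene over libraries. They do not measure the order of genes within a library, and that order was not tested. Gabbr1 lay above Gabbr2 in every library. Among Type 2 Control libraries Gabbr1 lay above Gria4 only in Type 2 Control 4 (35.8 against 13.9).

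With TAM depletion in Type 2 tumours a minority of the receptor genes rose. Of the 47 genes 8 rose and none fell, where 2.37% of all genes tested rose and 1.24% fell, 3.61% in all. Among the 8 were the NMDA subunits Grin1 and Grin2b, the metabotropic receptor Grm3, the GABA-A subunit Gabra4 and the GABA-B subunit Gabbr2. By class the 8 were 2 of 7 NMDA, 1 of 8 metabotropic glutamate, 4 of 19 GABA-A and 1 of 2 GABA-B genes, and none of the AMPA, kainate and delta genes. No class was tested as a whole, and 7 of the 19 GABA-A genes had a negative log2 fold change. The log2 fold changes of the 5 named genes ranged from 2.21 for Grm3 to 3.70 for Grin1. At an unadjusted p under 0.05 there were 26 genes, 25 of them higher, where 18% of all genes had such a p in either direction. The median log2 fold change of the 47 was 1.71, against -0.21 over all genes tested, and 37 of 47 were positive, against 40.6% of all genes. In 11 of the 47 every Type 2 TAM depleted library lay above every Type 2 Control library, where 3.86% of all genes did so, and in none did the reverse hold, where 3.39% did.

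The count of 8 depended on single libraries. Type 2 TAM depleted 2 held the highest value of all 16 libraries in 34 of the 47 genes and in all 8 that rose, and Type 2 Control 2 the lowest in 21 of 47. Without Type 2 TAM depleted 2 the count was 1, without Type 2 TAM depleted 1 it was 2, and without Type 2 TAM depleted 4 it was 4. Without Type 2 Control 3 it was 0, without Type 2 Control 1 it was 4, and without Type 2 Control 2 it was 7. The genes changed as well as the count. The 4 included Gabra2, and the 7 included Grik5, Gabra3 and Gria2, none of which was among the 8. Libraries of the other tumour kind enter through the shared estimate of the spread, and the count was 3 without Type 1 TAM depleted 1, 5 without Type 1 Control 1, 4 without Type 1 Control 2 and 3 without Type 1 Control 4. Fitted on the 8 Type 2 libraries alone it was 0, as for all genes. Within the high-background Type 2 libraries (2 against 2) 13 receptor genes rose, and within the low-background ones (2 against 2) none did. The share of all genes called is not given here for these fits or for those without 1 library. The log2 differences of all 8 were positive in both sets, but the 8 were called from these same libraries, so this is no separate support. Of the 47, 37 were positive in the high-background and 39 in the low-background set. The share of all genes positive within each set is not given here.

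**Figure D2:**
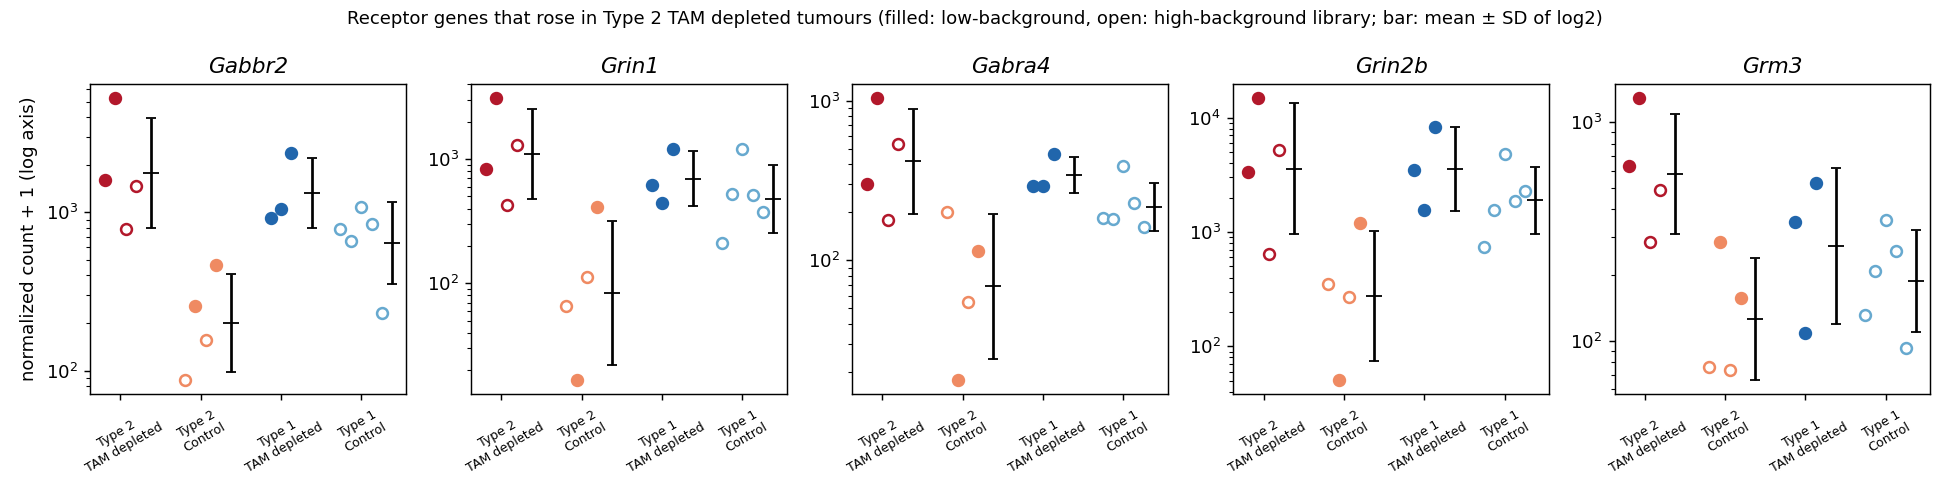
Normalized count + 1 (log axis) of 5 receptor genes that rose in Type 2 TAM depleted tumours, in each of the 16 libraries; filled points are low-background and open points high-background libraries, and the bar beside each group is the mean ± SD of the log2 values. Type 2 TAM depleted 2 is the highest point in every panel.

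The genes that rose moved with markers of neurons, measured here in bulk tissue, where fewer cells of a type and less RNA per cell cannot be told apart. Summed normalized counts of 12 neuron markers were 24018 to 111603 in Type 2 TAM depleted libraries and 3128 to 13465 in Type 2 Control libraries, ranges that did not overlap. Of the 12, 7 rose (Map2, Rbfox3, Snap25, Stmn2, Syp, Syn1 and Nrgn), all 12 fold changes were positive, and their median was 3.60. No neuron marker was at 0 in any library. Among 8 astrocyte markers Aqp4, a water channel, rose (2.04 ± 0.51, SE, adjusted p = 0.0387), and the summed count was 7682 to 16716 in Type 2 TAM depleted against 2534 to 10215 in Type 2 Control libraries. Of the 8 astrocyte fold changes 7 were positive and 1 was negative. Among 8 oligodendrocyte precursor markers Sox10 fell (-2.01 ± 0.52, SE, adjusted p = 0.0424), with summed counts of 5872 to 19466 in Type 2 TAM depleted against 5562 to 33556 in Type 2 Control libraries. Of the 8 precursor fold changes 3 were positive and 5 negative, with a median of -0.33. The 8 markers of mature oligodendrocytes were all positive and none passed, with sums of 10556 to 35188 in Type 2 TAM depleted against 3094 to 15821 in Type 2 Control libraries. The part of these cell markers in the receptor differences was not tested.

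Among AMPA receptor genes, which encode the fast excitatory channels, none passed the test in Type 2. Gria2, the subunit whose RNA editing keeps calcium out of the channel, came nearest. It had 4199.9, 6872, 2359 and 2789.6 normalized counts in Type 2 TAM depleted libraries, against 504, 2157, 219 and 1039 in Type 2 Control libraries. The groups did not overlap, with Type 2 Control 2 just below the lowest depleted library, and the log2 fold change was 2.39 ± 0.67 (SE, adjusted p = 0.0554). Gria1, the subunit inserted at strengthened synapses, had 1531, 6188, 565 and 1959 normalized counts against 92.9, 13.9, 110.4 and 976 in Type 2 Control libraries. Type 2 Control 4 lay above Type 2 TAM depleted 3, so the groups overlapped, and the log2 fold change was 4.02 ± 1.26 (SE, adjusted p = 0.0876). Gria3 and Gria4 had log2 fold changes of 0.78 ± 0.56 and -0.08 ± 0.63 (SE). Gria4 had 591, 1429.7, 824 and 565 normalized counts in Type 2 TAM depleted and 1201, 642, 1001 and 646 in Type 2 Control libraries.

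The promoters of 4 of these genes are shown because they set genes that rose beside genes that did not pass. Grin1 and Grm3 rose, Gria2 missed the threshold, and Gria4 had a fold change near 0. Each is the 250 bases before the RefSeq gene start (GRCm38.p6, minus strand for all 4, printed 5′ to 3′), and none of these bases lies in an annotated GENCODE exon. Capitals mark any of 6 motifs on either strand. These are the CRE palindrome TGACGTCA and the shorter CRE site TGACG, which lies within the palindrome, both bound by CREB, the GC box GGGCGG bound by SP1, the EGR site GCGTGGGCG, and the left part TTCAGCACC and the right part GGACAGCGC of RE1, the element bound by the repressor REST. The windows lie at chr2:25319188-25319437 for Grin1, chr5:9725353-9725602 for Grm3, chr3:80802836-80803085 for Gria2 and chr9:4796235-4796484 for Gria4.
Grin1: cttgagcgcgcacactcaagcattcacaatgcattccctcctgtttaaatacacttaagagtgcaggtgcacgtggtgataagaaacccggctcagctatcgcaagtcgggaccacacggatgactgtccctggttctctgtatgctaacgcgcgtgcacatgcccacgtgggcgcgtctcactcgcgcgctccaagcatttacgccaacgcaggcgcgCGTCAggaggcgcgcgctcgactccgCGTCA
Grm3: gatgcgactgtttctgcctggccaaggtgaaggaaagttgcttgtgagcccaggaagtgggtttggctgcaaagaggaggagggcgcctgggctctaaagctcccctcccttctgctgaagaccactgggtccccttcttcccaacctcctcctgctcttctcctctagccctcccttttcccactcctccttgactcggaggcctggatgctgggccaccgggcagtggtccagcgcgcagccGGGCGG
Gria2: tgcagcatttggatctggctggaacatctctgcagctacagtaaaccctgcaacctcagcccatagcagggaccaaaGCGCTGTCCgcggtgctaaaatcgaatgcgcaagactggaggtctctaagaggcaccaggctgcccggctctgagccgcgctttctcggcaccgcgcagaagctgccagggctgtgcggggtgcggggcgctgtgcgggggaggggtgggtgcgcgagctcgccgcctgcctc
Gria4: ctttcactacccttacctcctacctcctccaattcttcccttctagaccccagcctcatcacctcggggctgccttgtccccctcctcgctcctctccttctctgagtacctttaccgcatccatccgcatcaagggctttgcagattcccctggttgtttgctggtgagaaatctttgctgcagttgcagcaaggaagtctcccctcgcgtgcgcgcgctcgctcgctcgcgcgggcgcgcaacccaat
The Grin1 window held 2 of the shorter CRE sites, the Grm3 window ended in a GC box, the Gria2 window held the right RE1 part on the opposite strand, and the Gria4 window held none of the 6. The set of RefSeq promoters used here held 32 of the 47 receptor genes, in 39 windows, of 32851 windows in all. The GC box was in 46.2% of the 39 windows and 32.7% of all windows, with a median GC content of 58.8% and 52.4%. The shorter CRE site was in 7.69% of the 39 and 17.8% of all, and the CRE palindrome and EGR site were in 0 of the 39 and in 1.55% and 0.536% of all. The right RE1 part was in 1 of the 39 windows (Gria2) and 0.304% of all, and the left part in 1 (Grm2) and 0.301% of all.

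No kainate or delta receptor gene passed. Kainate receptors tune transmitter release and excitability, and Grik5 is one of the subunits that need a partner to form a channel. It had 1496, 2490.4, 779.8 and 965 normalized counts in Type 2 TAM depleted libraries, against 239, 746, 462 and 656 in Type 2 Control libraries. The groups did not overlap, and the log2 fold change was 1.42 ± 0.41 (SE, adjusted p = 0.0620). The other 4 kainate genes had log2 fold changes of 0.59 (Grik3) to 0.98 (Grik2). Delta receptors are glutamate receptor relatives that link the synapse through cerebellins. Grid1 had 369.8, 987, 235 and 365 normalized counts against 78.6, 70.7, 200.3 and 241 in Type 2 Control libraries, overlapping groups, with a log2 fold change of 1.71 ± 0.63 (SE) and an adjusted p of 0.148.

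NMDA receptors are calcium-permeable channels that open when glutamate meets a depolarised cell. Grin1 (chr2:25291181-25319187), the subunit that every NMDA receptor needs, had 830.0, 3113, 426 and 1295 normalized counts in Type 2 TAM depleted libraries, against 64.3, 15.6, 110.4 and 413 in Type 2 Control libraries. The lowest depleted library lay just above the highest control, and the gene rose, with a log2 fold change of 3.70 ± 0.79 (SE) and an adjusted p of 0.0217. The log2 difference was 3.12 in the high-background and 4.28 in the low-background set. Of the exon bases of Grin1, 13.5% lie in the antisense gene Grin1os, and the library kit does not mark strand, so reads of the pair cannot be told apart. Grin2b (chr6:135713233-136173511), the subunit that prevails in the young forebrain, had 3337, 14934, 635 and 5210.4 normalized counts against 350.3, 49.5, 269 and 1202 in Type 2 Control libraries. Type 2 Control 4 lay above Type 2 TAM depleted 3, and the gene rose, with a log2 fold change of 3.70 ± 0.94 (SE) and an adjusted p of 0.0399. Its log2 difference was 2.56 in the high-background and 4.84 in the low-background set.

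The other NMDA genes did not pass. Grin2a, which replaces Grin2b in many synapses as the brain matures, had 1141, 5939, 262 and 1513 normalized counts in Type 2 TAM depleted libraries, against 179, 16.1, 175 and 244 in Type 2 Control libraries. The groups did not overlap, but the values spread over a wide range, and the log2 fold change was 3.58 ± 1.19 (SE, adjusted p = 0.108). Grin2c, Grin2d and Grin3a, a subunit that lowers calcium entry, had log2 fold changes of 1.48, 0.98 and 0.87. Grin3b had -0.67 and is uncertain, since 32.1% of its exon bases also lie in Tmem259. Of the exon bases of Grin2d 9.66% lie in the antisense gene Gm45441, so its reads cannot be told apart from those of that gene either.

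Metabotropic glutamate receptors signal through G proteins. Grm3 (chr5:9485541-9725170), an inhibitory receptor of neurons and astrocytes, had 633, 1295, 283 and 488 normalized counts in Type 2 TAM depleted libraries, against 75.1, 282, 73.0 and 156 in Type 2 Control libraries. The groups met without overlap, with Type 2 TAM depleted 3 and Type 2 Control 2 nearly equal, and the gene rose, with a log2 fold change of 2.21 ± 0.58 (SE) and an adjusted p of 0.0460. Its log2 difference was similar in both sets, 2.31 in the high-background and 2.10 in the low-background libraries. Of the others, Grm2, Grm4, Grm5, Grm7 and Grm8 had log2 fold changes of 1.07 (Grm8) to 2.90 (Grm2), and none passed. Grm2 shares 9.60% of its exon bases with the antisense gene Gm28111. Grm6 had -1.63 ± 1.01 (SE), at 0 to 24.8 normalized counts against 4.45 to 39.2 in Type 2 Control libraries. It shares 11.05% of its exon bases with the antisense gene Gm12660.

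Among GABA-A receptor genes, which in part lie in clusters, Gabra4 rose. Gabra4 (chr5:71569749-71658308, coordinates in GRCm38), an alpha subunit found with delta outside synapses, had 302, 1043, 178 and 531 normalized counts in Type 2 TAM depleted libraries, against 200.2, 16.7, 53.4 and 113 in Type 2 Control libraries. Type 2 Control 1 lay above Type 2 TAM depleted 3, and the gene rose, with a log2 fold change of 2.60 ± 0.62 (SE) and an adjusted p of 0.0314. The log2 difference was 1.56 in the high-background and 3.64 in the low-background set. Its cluster neighbours on chromosome 5, Gabrg1, Gabra2 and Gabrb1, had log2 fold changes of 0.84, 1.91 and 2.49 and did not pass. Gabrb2 (chr11:42419757-42629028), a beta subunit common in the adult brain, had 507, 2289, 352 and 790.0 normalized counts in Type 2 TAM depleted libraries, against 168, 6.68, 58.8 and 297 in Type 2 Control libraries. The groups did not overlap, but the gene missed the threshold, with a log2 fold change of 3.44 ± 0.96 (SE) and an adjusted p of 0.0562. Gabra6 (chr11:42306437-42321072), on the same chromosome as Gabrb2, had 0.569, 0, 15.1 and 19.7 normalized counts in Type 2 TAM depleted libraries, against 75.1, 1.11, 12.5 and 2.83 in Type 2 Control libraries, and all values above 10 were in high-background libraries.

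Gabra5 and Gabrg3, which lie side by side on chromosome 7, had log2 fold changes of 2.67 and 2.02 and did not pass. On the X chromosome Gabra3 had 2.28 (adjusted p = 0.0977), with groups that did not overlap, Gabrq -0.13 and Gabre -1.16, and none of the 3 passed. Gabrd had 1.66, and Gabrp, Gabrr1, Gabrr2 and Gabrr3 had -1.50 to -0.16, again without passing.

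GABA-B receptors need both of their subunits, Gabbr1, which binds GABA, and Gabbr2, which couples to the G protein. Gabbr2 (chr4:46662305-46991873) had 1599, 5304, 785 and 1467 normalized counts in Type 2 TAM depleted libraries, against 85.8, 254, 155 and 461 in Type 2 Control libraries. All depleted libraries lay above all controls, and the gene rose, with a log2 fold change of 3.15 ± 0.61 (SE) and an adjusted p of 0.0154, the smallest p of the 47. The log2 difference was 3.21 in the high-background and 3.09 in the low-background set. Gabbr1 had 2707, 6976, 1627 and 3112.5 normalized counts against 433, 759.6, 694 and 2058 in Type 2 Control libraries. Type 2 Control 4 lay above Type 2 TAM depleted 3, and the gene just missed the threshold, with a log2 fold change of 1.92 ± 0.52 (SE) and an adjusted p of 0.0501.

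**Figure D3:**
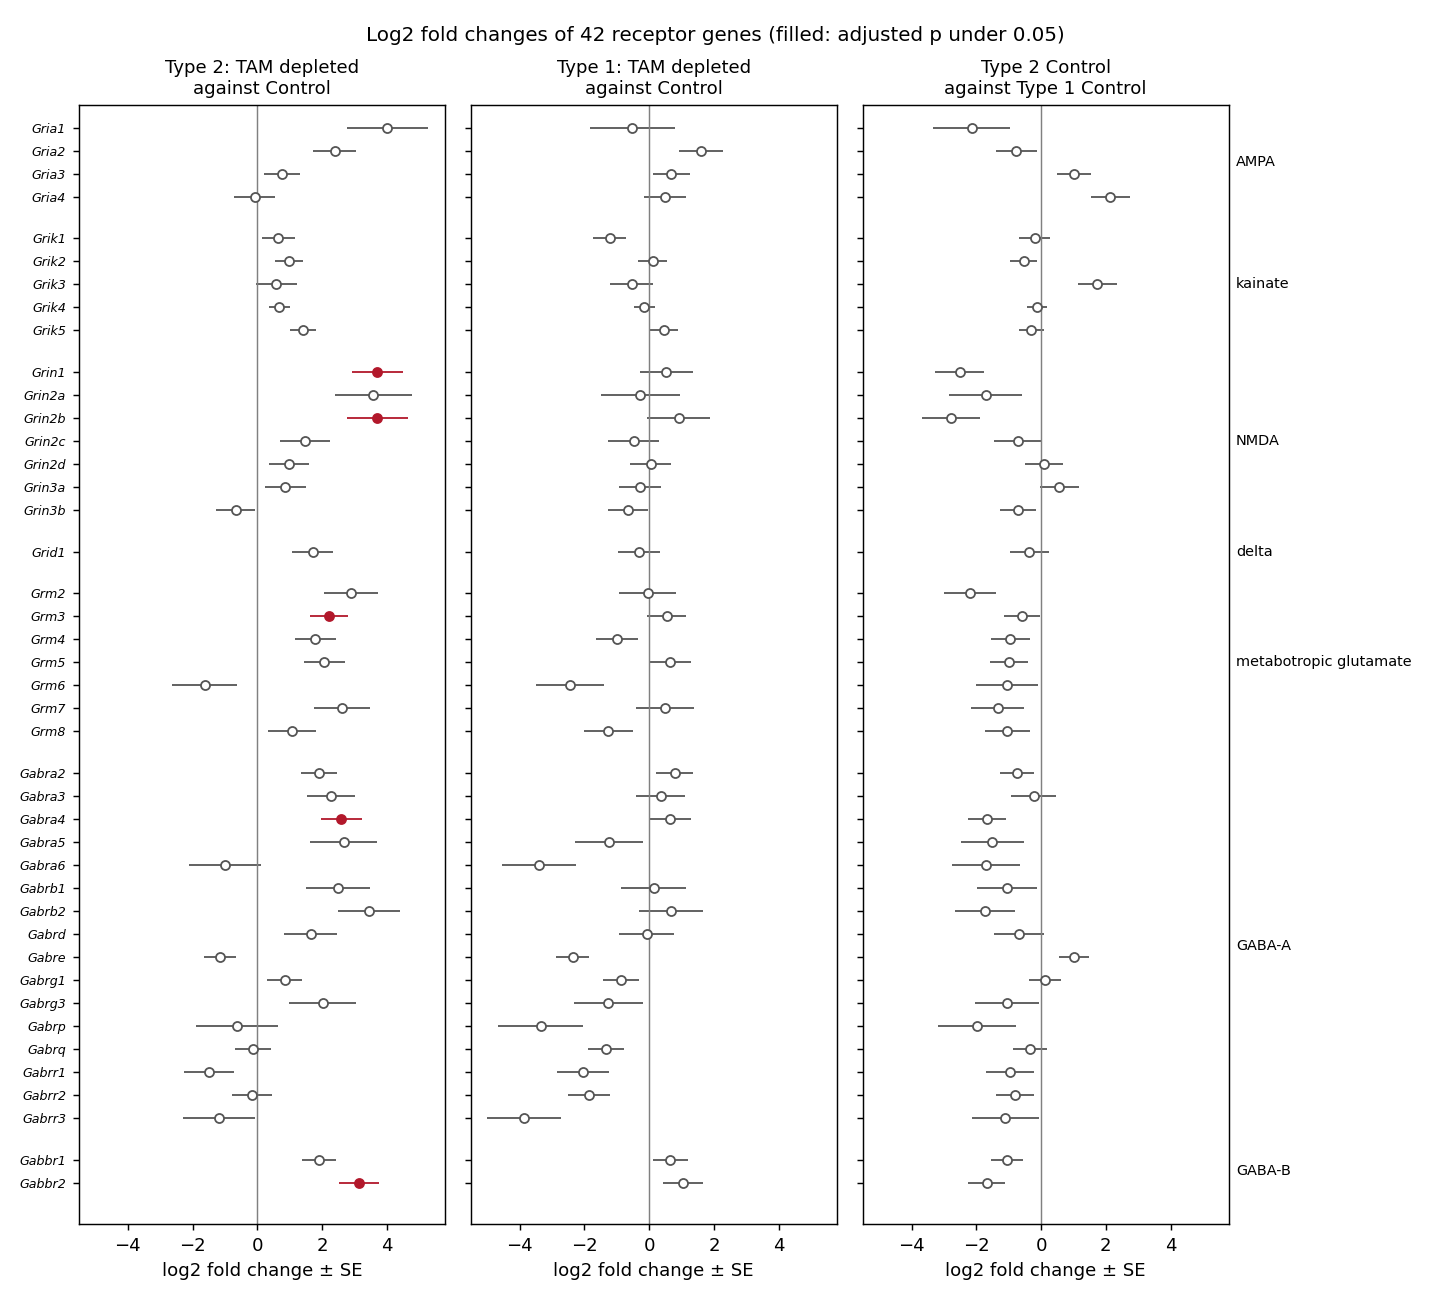
Log2 fold change ± SE (limma-trend) of 42 receptor genes by class, for TAM depletion in Type 2 and in Type 1 tumours and for Type 2 Control against Type 1 Control tumours; filled points passed the threshold. The 5 filled points are all in the Type 2 depletion panel and all positive.

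Of the genes that act with the receptors, some rose in the same comparison and none of the 5 lists examined held a gene that fell, where 2.37% of all genes tested rose and 1.24% fell. Of 14 auxiliary proteins of AMPA and kainate receptors 4 rose. They were Cnih3 (2.63 ± 0.45, SE) and Cnih2 (3.66 ± 0.87), cornichons that slow the closing of AMPA channels, Cacng3 (3.35 ± 0.72), a TARP that traffics them, and Gsg1l (2.33 ± 0.54). Of 18 scaffold genes of the excitatory synapse 9 rose, the 4 with the smallest p being Dlgap3 (3.23 ± 0.59), Dlg3 (1.94 ± 0.39), Shank2 (2.75 ± 0.58) and Homer2 (1.61 ± 0.37). One of 9 partners of GABA receptors rose, Lhfpl4 (1.52 ± 0.39), which brings GABA-A receptors to inhibitory synapses. Of 16 genes of transmitter synthesis and transport 3 rose. These were Slc17a7 (5.05 ± 1.03), the vesicular glutamate transporter of cortical neurons, Gad1 (3.44 ± 0.89), which makes GABA, and Glul (2.13 ± 0.57), the glutamine synthetase of astrocytes. Neither of the 2 chloride transporters passed, one being positive and the other negative. The median log2 fold changes of the 5 lists were 1.98, 1.78, 1.49, 2.17 and 1.56 in this order, against -0.21 over all genes tested.

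In Type 1 tumours no receptor gene passed the test for TAM depletion in limma-trend or limma-voom, and no gene of the whole table did, which is 0% of genes tested. At an unadjusted p under 0.05 there were 10 of the 47, against 30.3% of all genes. The median log2 fold change was -0.08, against -0.06 over all genes, and 22 of 47 were positive, against 48.5% of all genes. No receptor gene had all Type 1 TAM depleted libraries above all Type 1 Control libraries, where 10.5% of all genes did. The reverse held for 7 (Grm6, Gabra6, Gabre, Gabrp, Gabrr1, Gabrr2 and Gabrr3), or 14.9% of the 47, where 28.6% of all genes did. All Type 1 Control libraries were high-background and all Type 1 TAM depleted libraries low-background.

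These 7 were low genes. Gabrr3 had 5.05, 1.21 and 0.573 normalized counts in Type 1 TAM depleted libraries, against 24.8 to 48.7 in Type 1 Control libraries. Gabre, the epsilon subunit of GABA-A receptors, had 8.42, 15.1 and 8.59 normalized counts against 37.5 to 119 in Type 1 Control libraries, and its log2 fold change was -2.36 ± 0.51 (SE, adjusted p = 0.103). Among the genes that rose in Type 2, Gabbr2 had 927, 1051 and 2384 normalized counts in Type 1 TAM depleted libraries, against 785, 659, 1076, 838 and 229 in Type 1 Control libraries. Type 1 Control 3 lay above 2 of the 3 depleted libraries, and the log2 fold change was 1.05 ± 0.63 (SE, adjusted p = 0.251). Grin1, Grin2b, Grm3 and Gabra4 had log2 fold changes of 0.53 (Grin1) to 0.92 (Grin2b) in Type 1, with adjusted p of 0.466 or more. Gria2 had the largest positive value of the 47, 1.60 ± 0.69 (SE, adjusted p = 0.136), at 3571, 3052 and 4404 normalized counts against 1186, 1289, 3186, 1610.1 and 312 in Type 1 Control libraries.
Fitted on the 8 Type 1 libraries alone, 9 receptor genes were called lower, the 7 above with Grm8 and Gabrq, among 9389 genes called in that fit. The summed neuron markers were 20836 to 52613 in Type 1 TAM depleted and 13271 to 32688 in Type 1 Control libraries.

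The difference between the 2 depletion responses, Type 2 minus Type 1, passed for no receptor gene in limma-trend or limma-voom, as for 0% of all genes. At an unadjusted p under 0.05 there were 16 of the 47, all positive, against 10.1% of all genes. Altogether 45 of the 47 differences were positive, against 56% of all genes. The lowest adjusted p was 0.462, for Grm4, with a difference of 2.78 ± 0.91 (SE) on the log2 scale. For Gabbr2, Grin1, Grin2b, Grm3 and Gabra4 the differences were 1.67 ± 0.84 (Grm3) to 3.17 ± 1.14 (Grin1). The receptor responses are therefore not shown to differ between the tumour kinds.

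Between the tumour kinds without depletion no receptor gene passed in limma-trend, where 3.09% of all genes did (2.28% higher and 0.816% lower). In limma-voom 5 were called, and the share of all genes called in that fit is not given here. Of the 47, 39 were lower in Type 2 Control than in Type 1 Control libraries, with a median log2 fold change of -0.96, against -0.23 over all genes tested, of which 37.8% were positive. At an unadjusted p under 0.05 there were 12, 3 of them higher, against 13.7% of all genes. None had groups without overlap, where 5.03% of all genes were higher and 1.93% lower in this way. The 3 higher genes were Gria4, Grik3 and Gabre.

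Gria4, an AMPA subunit with fast kinetics, had 1201, 642, 1001 and 646 normalized counts in Type 2 Control libraries, against 97.1, 283, 719.9, 167 and 74.0 in Type 1 Control libraries. Only Type 1 Control 3 reached into the range of Type 2 Control, and the log2 fold change was 2.14 ± 0.60 (SE, adjusted p = 0.0656). Within the high-background libraries the difference was 2.52 and Gria4 was called. Grik3, a kainate subunit, had 400.4, 1457, 688 and 1059.5 normalized counts in Type 2 Control libraries, against 124, 334, 719, 178 and 155 in Type 1 Control libraries, again with Type 1 Control 3 in the range of the others. Its log2 fold change was 1.74 ± 0.60 (SE, adjusted p = 0.153). Among the lower genes Grin1 had -2.51 ± 0.75 (SE, adjusted p = 0.0870). Within the high-background libraries Grin1 and Gabbr2 were called lower, at -2.49 and -2.46. The count of 0 became 1 without Type 2 Control 1, Type 1 TAM depleted 2 or Type 1 Control 3, and 2 without Type 2 Control 4.

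Markers of cell types moved in the same comparison. Of 8 oligodendrocyte precursor markers 4 were higher in Type 2 Control (Sox10, Cspg4, Gpr17 and Pdgfra, Sox10 by 4.56 ± 0.49 on the log2 scale), and the summed count was 5562 to 33556 in Type 2 Control against 662 to 3832 in Type 1 Control libraries. Of 12 neuron markers 4 were lower (Rbfox3, Snap25, Stmn2 and Syp), with sums of 3128 to 13465 in Type 2 Control against 13271 to 32688 in Type 1 Control libraries. The 12 macrophage and microglia markers were all positive and none passed, with sums of 3403 to 9666 in Type 2 Control against 1761 to 3533 in Type 1 Control libraries. Of 8 astrocyte markers 1 was called higher, with 4 positive and 4 negative fold changes. Of 8 mature oligodendrocyte markers 1 was called higher, with 5 positive and 3 negative fold changes. Cnih3 was the one receptor auxiliary gene called, at -2.07 ± 0.42 (SE, adjusted p = 0.0105). The part of these markers in the receptor values was not tested.

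Between the depleted tumours of the 2 kinds no receptor gene passed in limma-trend or limma-voom, where 0.185% of all genes did in limma-trend, 0.0567% higher and 0.128% lower. At an unadjusted p under 0.05 there were 10 of the 47, all higher in Type 2, against 12.1% of all genes. Of the 47, 43 were positive, against 55.8% of all genes. In 4 genes (Gria4, Grik3, Grm4 and Gabre) all Type 2 TAM depleted libraries lay above all Type 1 TAM depleted libraries, where 3.3% of all genes did so. In none did the reverse hold, where 5.77% did. Gabre was separated narrowly, by 15.5 normalized counts in Type 2 TAM depleted 2 against 15.1 in Type 1 TAM depleted 2. The background sets were not balanced here. All Type 1 TAM depleted libraries were low-background, while Type 2 TAM depleted 3 and 4 were high-background. The count of 0 became 1 without Type 2 TAM depleted 2 and 3 without Type 1 TAM depleted 3. Grik3 had 1265, 1462, 1357 and 862 normalized counts in Type 2 TAM depleted libraries, against 145, 53.9 and 576 in Type 1 TAM depleted libraries. Its log2 fold change was 2.86 ± 0.68 (SE, adjusted p = 0.121). Gria4 had 591, 1429.7, 824 and 565 normalized counts against 446, 89.0 and 479.5 in Type 1 TAM depleted libraries, with a log2 fold change of 1.56 ± 0.68 (SE) and an adjusted p of 0.373. This comparison and the one between the Controls share no library in their group means.

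The make-up of each receptor family was set out as the share of each subunit in the summed reads per kb of its family. Gria4 held 11.8% to 29.9% of the AMPA total in Type 2 TAM depleted, 25.6% to 65.2% in Type 2 Control, 5.61% to 17.4% in Type 1 TAM depleted and 10.6% to 15.7% in Type 1 Control libraries. The Type 2 Control range reached into that of Type 2 TAM depleted and lay above both Type 1 groups. Grik3 held 19.4% to 39.0% of the kainate total in Type 2 TAM depleted and 29.9% to 40.4% in Type 2 Control libraries, against 3.63% to 15.1% in Type 1 TAM depleted and 7.77% to 20.5% in Type 1 Control libraries. These shares are descriptions without a test.

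Single libraries stood apart from the others of their group in make-up. In Type 2 Control 2, a low-background library of 14.7 M reads, several neuronal subunits were low while others were high. Gria1 had 13.9 normalized counts, Grin1 15.6, Grin2a 16.1 and Grin2b 49.5. In the same library Gria2 had 2157 normalized counts, Gria3 1102, Grik3 1457, Grin3a 1505 and Gabra3 519. Per kb Grin3a made up 90.6% of its NMDA total, Gabra3 92.2% of its GABA-A alpha total and Gabrg1 92.4% of its gamma total, and Gria1 0.649% of its AMPA total. The 12 neuron markers summed to 8110 normalized counts there, second highest of the 4 Type 2 Control libraries, while their mean log2 level, 6.60, was the lowest of the 4. The 8 oligodendrocyte precursor markers summed to 33556, the highest of the 4. Without Type 2 Control 2, 7 receptor genes rose in Type 2 depletion, among them Grik5, Gabra3 and Gria2, which did not pass with all libraries.

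Type 1 TAM depleted 2 showed another make-up. Gria2 made up 78.0% of its AMPA total. Gria1 had 32.7 and Grin2a 23.6 normalized counts, against 3052 for Gria2 in the same library. The 12 neuron markers summed to 20836 normalized counts there, against 28147 and 52613 in the other Type 1 TAM depleted libraries. Their mean log2 level was 8.43, against 10.2 and 11.3. The markers did not move together. Camk2a had 81.1 normalized counts against 3446 and 14165, while Tubb3 had 4234 against 4215 and 1270.

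**Figure D4:**
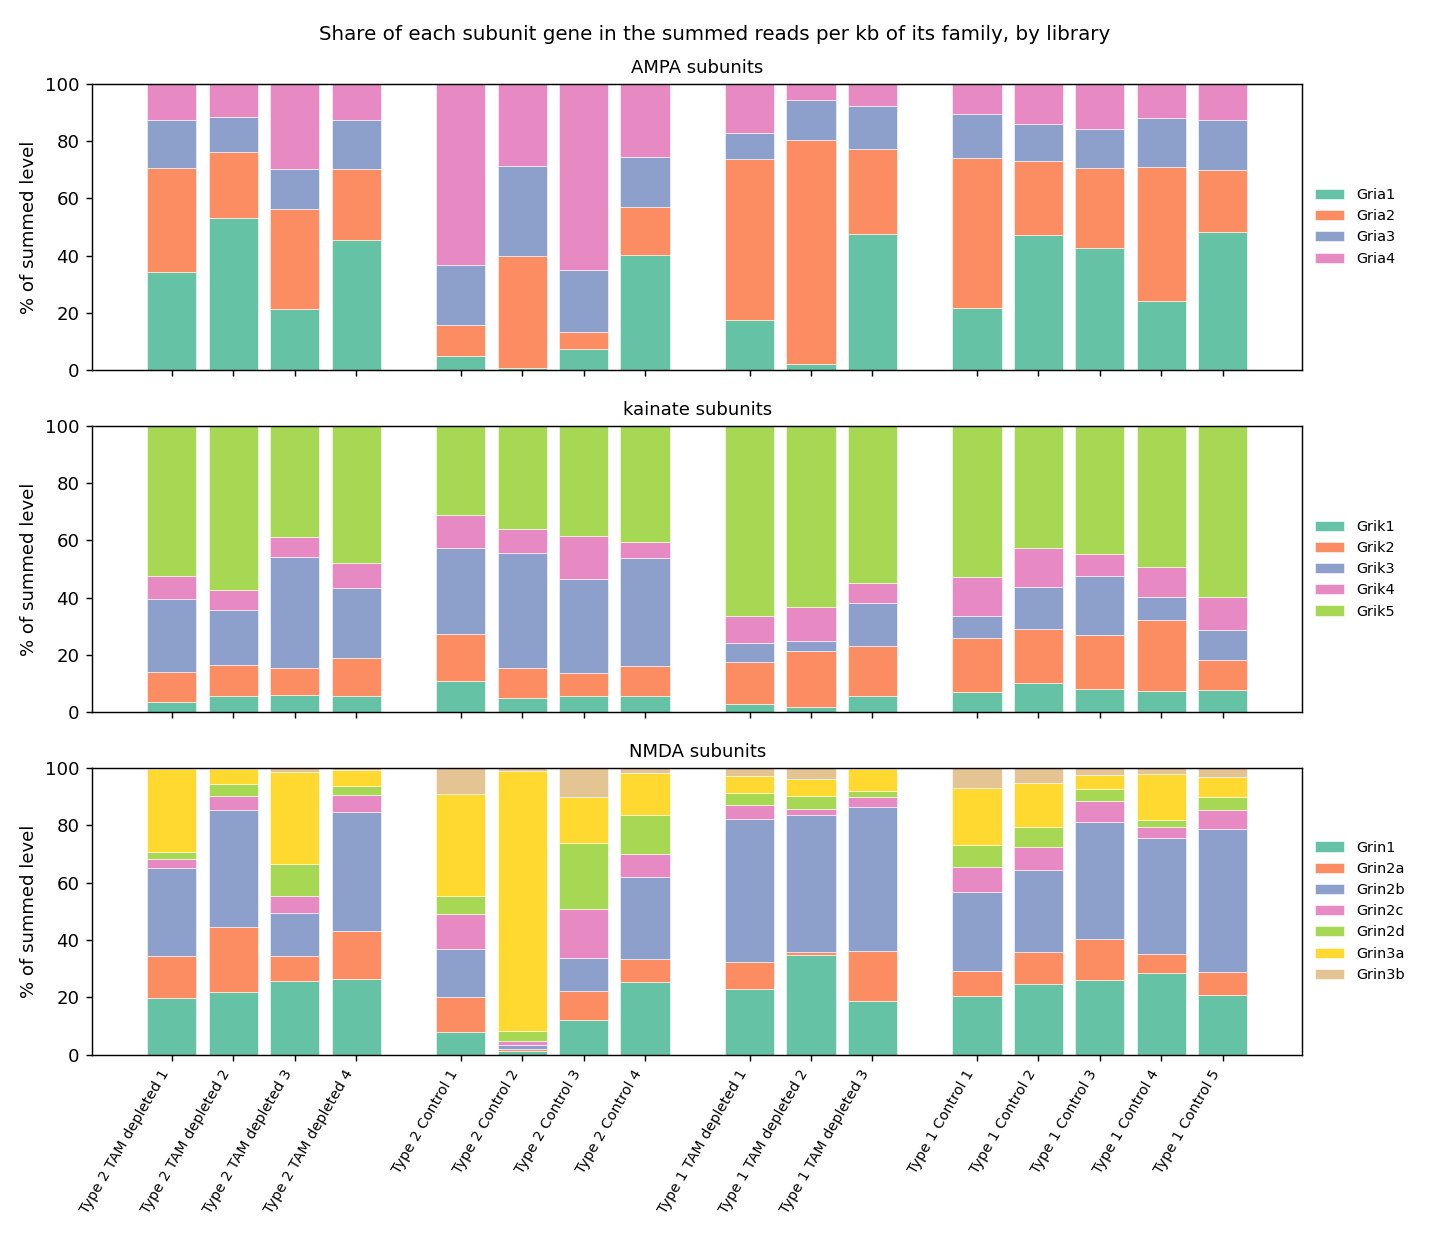
Share of each subunit gene in the summed reads per kb of its family (percent, stacked to 100) for AMPA, kainate and NMDA subunits in each of the 16 libraries, grouped by tumour kind and treatment. Type 2 Control 2 stands out by Grin3a (90.6%), and Type 1 TAM depleted 2 by Gria2 (78.0%).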

How the data were processed

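The labels' protocols name TRIzol and miRNeasy Micro for the RNA and SMART-Seq v4, a kit that does not mark strand, for the libraries. STAR 2.7.8a, DESeq2 and GRCm38 are named in the submitters' processing notes. No source used here names the counting tool or annotation. The deposited values are variance-stabilized log2 values with 1 floor (3.74). Undoing that transform gave normalized counts, and whole reads in 100% of values (tolerance 0.05 reads), equal to those from each tumour kind's own table. Since the deposited unit is log2, no count model was run. No column of another sample was used (0 left out).

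Of all genes, 26463 reached 10 normalized counts in at least 3 libraries. They were tested 2-sided by limma-trend (version 3.58.1 in R 4.3.3) on log2 values with a pseudocount of 1, as 4 group means over 16 libraries. Exon lengths came from GENCODE vM21 (GRCm38; 96.4% of symbols matched) and promoters from RefSeq. Replicates differed beyond sampling noise (chi-square per degree of freedom at least 9.49). The steps were also run on simulated counts with the same relative spread for every gene and no background sets. That run cannot show how the tests behave with the background sets and outlying libraries of these data. Alternatives covered pseudocount, filter, scaling, limma-voom, blocks, the groups fitted and single libraries; fits within a background set were added after seeing the data.

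The members and lists were chosen with earlier results of these data known. Described in full are genes past the threshold and, per class, those with the smallest p in Type 2 depletion and the highest level per kb; from each partner list, up to 4 genes past the threshold with the smallest p. Other genes were named after their values were seen. Some receptor genes enter the counts and medians but are not reported here by name. Reads carry no molecular identifiers, and library depth limits the precision of low genes.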

Additional observations from a re-analysis of the deposited data

Results flagged for a closer look

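Grin2a in Type 2 Control 2 lay far below the other Type 2 Control libraries. It had 16.1 normalized counts there, and the nearest of the other 3 had 175. On the log2 scale the gap to the nearest library was 0.875 of the group's whole range, above the Dixon limit at 95% for 4 samples. It was the 1 case in 141 combinations of gene and group. Chance gives about 1 in 20, so a single case is no more than chance would give. With that library left out, Grin2a still missed the threshold in Type 2 depletion.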

How the results depend on the processing

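In Type 2 depletion the count of 8 receptor genes became 14 with a filter of 50 normalized counts, 17 with the background set as a block, 0 in a fit on the 8 Type 2 libraries alone, and 13 and 0 within the high-background and low-background Type 2 libraries, which were chosen after seeing the data. Leaving out 1 library at a time gave 0 to 12, not always among the reported 8. For most fits in this section the share of all genes called is not given, so the counts are not read as particular to receptor genes. Both pseudocounts, no filter and limma-voom gave 8 to 11, and upper quartile scaling 8, of which 6 were among the reported ones. Under that scaling the median log2 fold change was -0.41 for all genes and 1.497 for the receptor genes, in place of -0.21 and 1.71. No called gene changed sign in 216 combinations of gene and alternative, 27 for each of the 8. In 84 of these the gene was no longer past the threshold. Of the 27 alternatives each, Gabbr2 passed in 24, Grin1 in 22, Gabra4 in 20, Grin2b in 14 and Grm3 in 13. In limma-voom Grm3 did not pass. The alternatives reuse the same libraries, so an unchanged sign is no separate support.

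In Type 1 depletion a fit on the 8 Type 1 libraries gave 9 lower genes in place of 0; the cause was not tested, and the count was 0 without any single library. Upper quartile scaling moved the medians there to -0.44 over all genes and -0.46 over the receptor genes. Between the Controls the count of 0 became 1 with the filter of 50 (Gria4), 5 in limma-voom (among them Gria4 higher and Gabrp, Gabra6 and Gabra4 lower), 1 with the background block (Gabbr2), 4 within the high-background libraries, and 0 to 2 without 1 library. Between the depleted tumours it became 1 with the background block (Grik3) and 0 to 3 without 1 library. For the difference of responses no alternative gave a call. The median number of receptor genes above the odour receptor level was 38, and 19 with the maximum in place of the 95th percentile.

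With the replicate number as a block the count in Type 2 depletion was 1, Gabbr2, and 0 in the other comparisons. Same-numbered libraries correlated from -0.606 to 0.662 in their deviations from the group means, and not every library correlated best with its own number, so the numbers are not taken to pair them. The causes of these shifts were not tested.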
